A study of Mus musculus with 3 samples.

Results

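The genes described here are the amino acid transporter genes of 7 solute carrier families, Slc1a, Slc3a, Slc6a, Slc7a, Slc36a, Slc38a and Slc43a, in MC3T3-E1 cells. They were chosen by name, as all listed genes of these families except Slc7a11, and numbered 40 of the 15287 genes in the deposited table. MC3T3-E1 is an established preosteoblast line from mouse calvaria, and all 3 libraries came from wild-type cells of this line. The CTL library was made from cells without special treatment, for which the labels give no time. The Ti library was made from cells exposed for 24 h to titanium (Ti) particles, at 10 μg on each square centimetre. For Ti+Se-Met, cells received the same dose of particles over the same 24 h along with 5 μM selenomethionine (Se-Met). The comparisons address what the particles change in these cells and what Se-Met changes in their presence. With 1 library per condition, no spread between replicates is known and p-values were not computed. A difference between libraries therefore cannot be told apart from one between 2 cultures of the same kind. A line cultured alone also lacks the osteoclasts and macrophages that take part in osteolysis.

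Amino acids cross membranes through carriers that differ in their substrates and in what drives them. Some, such as the Slc1a, Slc6a and Slc38a carriers of the cell surface, use the sodium gradient to concentrate their substrate, while many Slc7a carriers exchange one amino acid for another. Several Slc7a light chains reach the membrane only when bound to a heavy chain, Slc3a2 or Slc3a1, and the pair of Slc7a5 with Slc3a2 takes up large neutral amino acids, methionine among them. Osteoblasts need a large supply of glycine, proline and glutamine because they secrete collagen. Se-Met is methionine with selenium in place of sulphur, and it shares the carriers of methionine.

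All values are FPKM, fragments relative to transcript length and to all mapped fragments, as the authors deposited them. The depth, estimated from the steps that single fragments leave in the low values of short genes, was about 14200000 fragments in CTL, 14750000 in Ti and 10550000 with Se-Met added, so the low values of Ti+Se-Met were the least precise. Each fold of FPKM stands with its 95% interval, from the exact binomial distribution of the estimated fragments of both libraries. These intervals hold counting error and nothing else, so they are about the libraries rather than the treatments. Where 3 values follow each other, they are those of CTL, Ti and Ti+Se-Met in this order. A gene was kept with at least 1 FPKM in at least 1 library, which 11137 genes passed. The preosteoblast label was checked against 8 markers: Col1a1, Col1a2, Sparc and Spp1 were at 354.20 FPKM or more in all libraries and Runx2 between 17.14 and 26.77, whereas Alpl, Sp7 and Bglap did not exceed 1.51 FPKM. The collagen gene Col1a1 itself was at 1333.19, 354.20 and 481.63 FPKM, and whether this bears on any transporter was not tested. Of the markers of other cell types, the macrophage gene Lyz2 was at 26.72, 14.76 and 12.42 FPKM, only 3 of 5 macrophage markers were listed, and each of the other 7 listed markers of macrophages, endothelium, adipocytes and epithelium stayed below 1 FPKM. The part of other cells in any value was not tested, and fewer cells of a type and less RNA per cell cannot be told apart in such libraries.

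Of the 40 transporter genes, 20 passed the filter, and all values below refer to these unless stated otherwise. The heavy chain gene Slc3a2 was the most abundant by far, and alone made up 29.7% of the summed FPKM of the 40 genes in CTL, 31.9% in Ti and 34.1% with Se-Met added. Its rank among all listed genes was 432 in CTL, 343 in Ti and 320 with Se-Met added. Next in CTL came Slc38a10 at 58.60 FPKM, Slc38a2 at 51.23, Slc6a6 at 33.04 and Slc7a5 at 26.52. Slc1a4, Slc1a3, Slc1a5 and Slc6a8 lay close together in CTL, between 20.46 and 21.86 FPKM, and Slc38a6 followed at 19.29. The least abundant of the 20 genes was Slc38a9, at 1.43 FPKM in CTL. The 40 genes together held 487.03 FPKM in CTL, 636.15 in Ti and 615.40 with Se-Met added, or 0.109%, 0.121% and 0.12% of the FPKM of all genes.

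**Figure D1:**
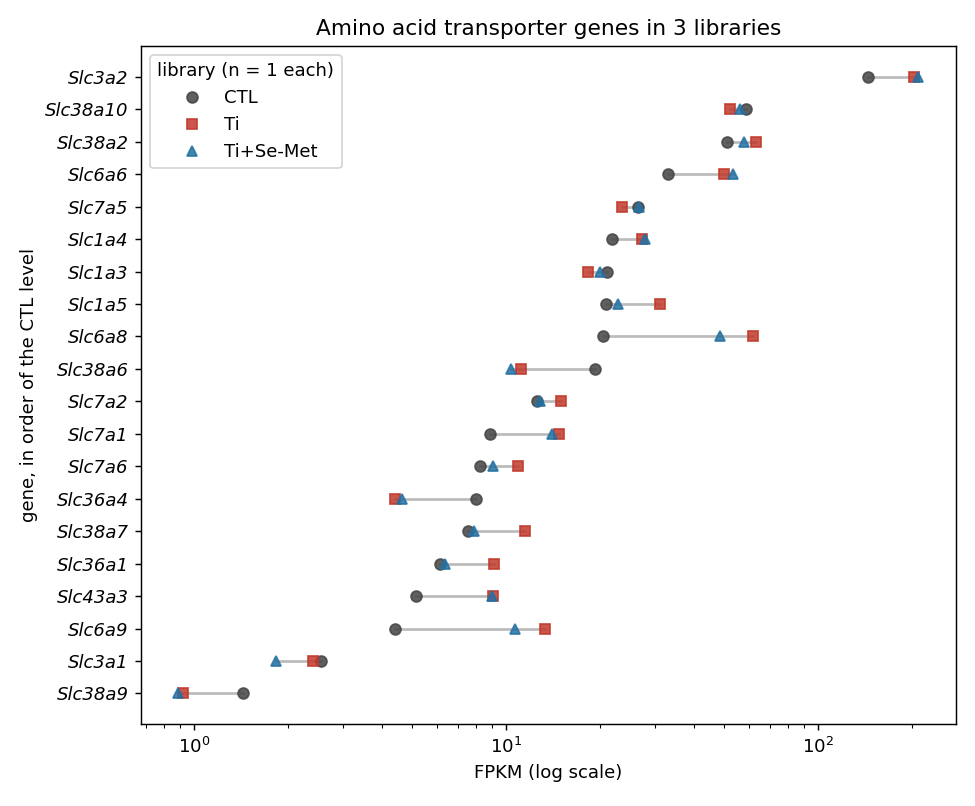
FPKM on a log scale of the 20 transporter genes with at least 1 FPKM in at least 1 library, in order of their CTL level, with 1 point per library and a grey line over the range of the 3 values. Slc6a8 and Slc6a9 show the widest ranges, from 20.46 to 61.84 and from 4.42 to 13.29 FPKM, and Slc38a6 and Slc36a4 lie lower in both Ti-treated libraries than in CTL.

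In the Ti library, 2 of the 20 genes were at least 2-fold above CTL on the log2(FPKM + 1) scale and 0 were 2-fold below, while 3.63% of all 11137 genes were 2-fold higher and 3.64% 2-fold lower, 7.26% in all. In Ti+Se-Met against CTL, the same 2 genes, Slc6a8 and Slc6a9, were 2-fold higher and 0 were lower, where 2.64% of all genes were higher and 3.32% lower, 5.96% in all. Between Ti+Se-Met and Ti, 0 of the 20 genes were 2-fold higher or lower, against 0.162% and 0.0629% of all genes, 0.224% in all. Nor did any of the 20 differ by 1.5-fold there, as 2.14% of all genes did, 0.844% higher and 1.29% lower. With only 20 genes, a count of 2 lies close to these shares, and it describes those 2 genes rather than the families. At 1.5-fold, Slc7a1 and Slc43a3 were also higher in Ti than in CTL, and Slc38a6 and Slc36a4 were lower, which made 4 genes higher and 2 lower where 15.5% and 11.3% of all genes were, 26.8% in all. In Ti+Se-Met, Slc6a6 also passed this limit, which made 5 genes higher than CTL and the same 2 lower, or 7 genes. Of all genes, 10.4% were higher and 11.8% lower there, 22.2% in all. In Ti, Slc6a6 and Slc38a7 missed the limit only through the 1 added to each FPKM, as their folds of FPKM over CTL were 1.51 and 1.52.

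The median log2 ratio of the 20 genes was 0.33 for Ti over CTL, 0.09 for Ti+Se-Met over CTL and -0.09 for Ti+Se-Met over Ti. The corresponding medians of all 11137 genes were 0.08, 0.01 and -0.06. Rescaling each library to the same sum (TPM) moved the median of all genes in Ti against CTL from 0.08 to -0.14. It moved that of the 20 genes to 0.12. The distance between the medians, 0.26, was the same as with FPKM, because 1 factor per library shifts all genes nearly alike. In Ti against CTL, 13 of the 20 genes were higher and 7 lower, with FPKM and with each of 3 other scalings (TPM, median of ratios and upper quartile). The split between Ti+Se-Met and CTL depended on the scaling, with 14 higher and 6 lower in FPKM but 7 higher and 13 lower as TPM. The median of all genes in that comparison also moved, from 0.01 in FPKM to -0.17 as TPM.

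In Ti against CTL, the interval of the fold lay above equal levels under all 4 scalings for 10 of the 20 genes and below for 6, where 27.9% and 32% of the 10919 genes with a known transcript length did. The other 4 genes, Slc1a4, Slc7a2, Slc7a6 and Slc3a1, had an interval that included equal levels under at least 1 scaling. For Ti+Se-Met over CTL it lay above for 7 and below for 3, where 21.9% and 32% of all genes did. For Ti+Se-Met over Ti it lay above for 3 and below for 7, where 15.8% and 19.7% of all genes did. The intervals leave out the variation between cultures, which was not measured.

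**Figure D2:**
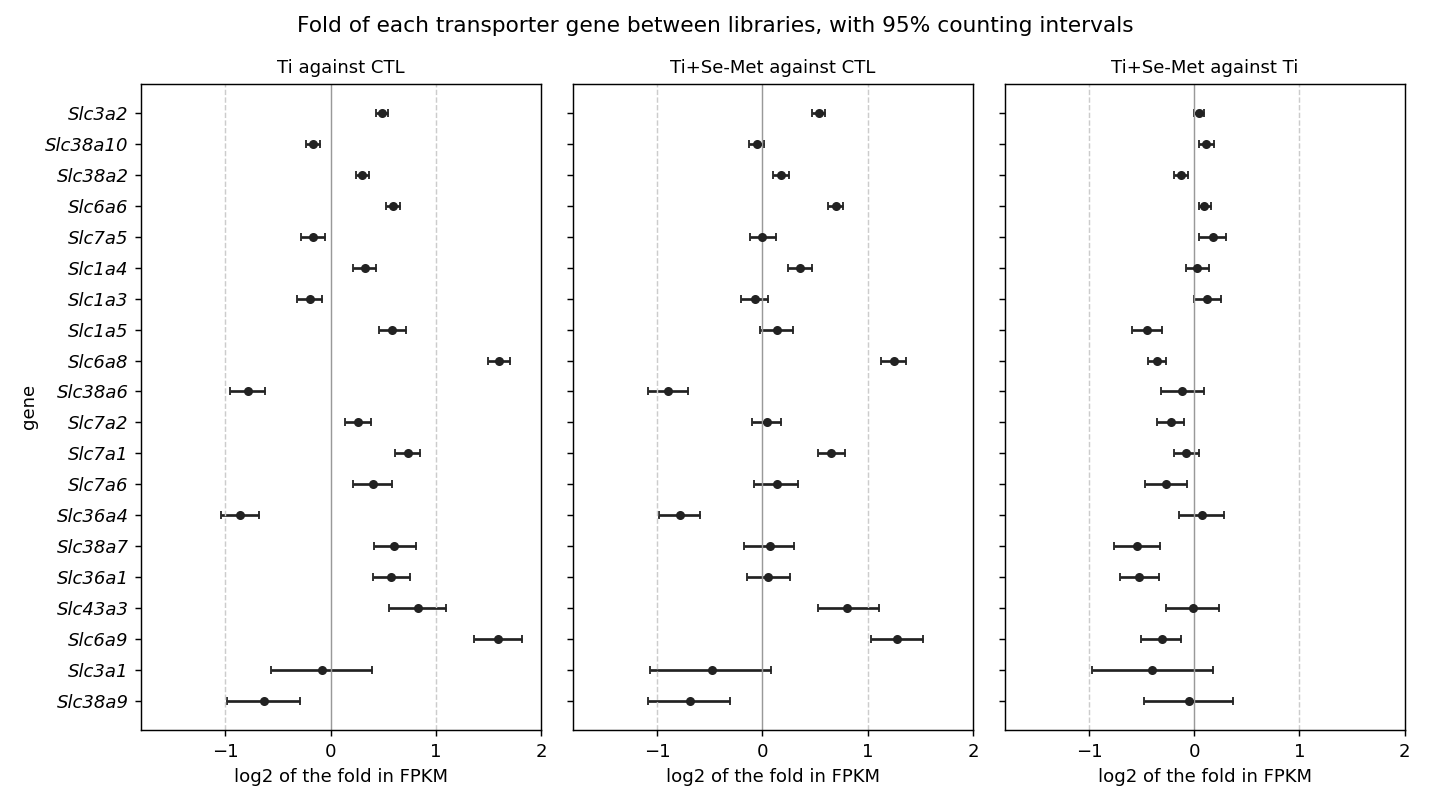
Log2 of the fold in FPKM of the 20 transporter genes in the 3 comparisons, with 1 library per condition. Bars are 95% counting intervals, solid lines mark equal levels and dashed lines 2-fold. The points of Slc6a8 and Slc6a9 lie beyond 2-fold in both comparisons with CTL, and in Ti+Se-Met against Ti all 20 points lie within 2-fold.

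The carriers of methionine differed in direction between Ti and CTL, as Slc3a2 and Slc38a2 were higher and Slc7a5 was lower in Ti. Slc3a2, the heavy chain also known as 4F2hc or CD98, had 144.61 FPKM in CTL, 203.06 in Ti and 209.99 with Se-Met added. It was thus higher in both Ti-treated libraries, with a fold over CTL of 1.4 (interval 1.35 to 1.46) in Ti and 1.45 (interval 1.39 to 1.51) in Ti+Se-Met. Its folds over CTL under the other scalings were between 1.2 and 1.48, and Ti+Se-Met held 1.03 times the Ti level (interval 0.996 to 1.07). Under the other 3 scalings this ratio was between 1.06 and 1.09, with intervals above equal levels.

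Slc7a5, the light chain LAT1 that carries the substrate, had 26.52 FPKM in CTL, 23.62 in Ti and 26.63 with Se-Met added. It was slightly lower in Ti than in the other 2 libraries, with a fold of 0.891 (interval 0.822 to 0.965) against CTL and of 1.13 (interval 1.03 to 1.23) for Ti+Se-Met over Ti. Between Ti+Se-Met and CTL its fold was 1.0, with an interval of 0.922 to 1.09, and 0.875 as TPM.

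Slc38a2, the sodium-coupled carrier SNAT2 of small neutral amino acids including methionine, had 51.23 FPKM in CTL, 63.13 in Ti and 57.90 with Se-Met added. It was highest in Ti, with a fold over CTL of 1.23 (interval 1.18 to 1.29), or 1.05 as TPM. Its fold between Ti+Se-Met and CTL, 1.13, turned to 0.985 as TPM, so a direction for that comparison depends on the scaling. None of these 3 genes reached 1.5-fold in any comparison.

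Of the other light chains of Slc3a2, Slc7a6, Slc7a7 and Slc7a8 were less abundant than Slc7a5 in each library. Slc7a6, or y+LAT2, which exchanges cationic for neutral amino acids, had 8.28 FPKM in CTL, 10.91 in Ti and 9.07 with Se-Met added. Slc7a7 did not exceed 0.84 FPKM and Slc7a8, the light chain LAT2 of neutral amino acids, did not exceed 0.04 FPKM. The cystine carrier Slc7a11, which is not counted among the 40 genes, was at 21.21, 28.68 and 25.64 FPKM. Slc3a2 was therefore 2.56 times as abundant in FPKM as its 5 listed light chains together in CTL, 3.2 times in Ti and 3.37 times in Ti+Se-Met. Without Slc7a11 the ratio was 4.11, 5.83 and 5.74, and against Slc7a5 alone it was 5.45, 8.6 and 7.89. These are ratios of RNA levels per length within a library, so they do not depend on the scaling between libraries. Slc3a1, the other heavy chain, was at 2.55, 2.41 and 1.83 FPKM, and 26.5% of its exonic bases also lie in exons of Prepl on the other strand. Prepl was more abundant, at 25.24, 19.71 and 18.60 FPKM, and the part of its reads in the values of Slc3a1 was not tested.

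**Figure D3:**
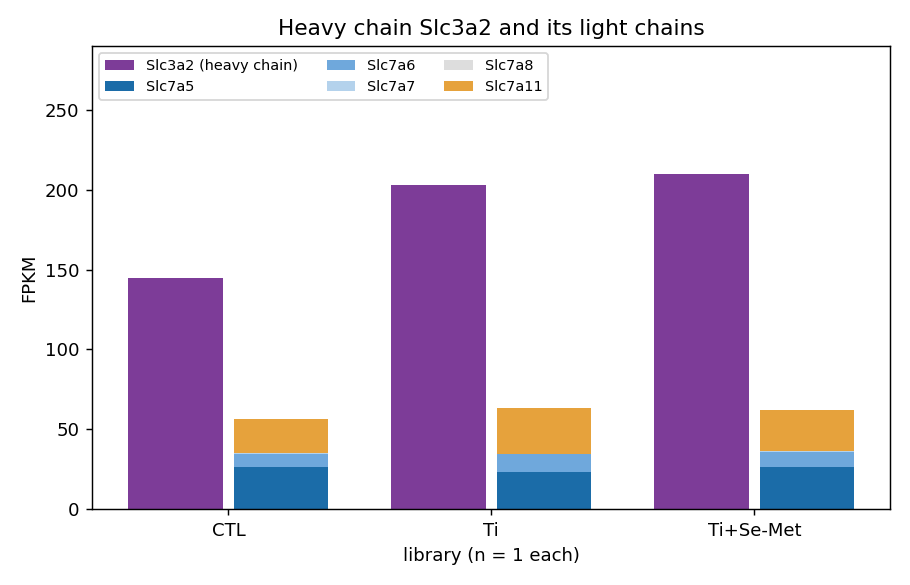
FPKM of the heavy chain Slc3a2 beside the stacked FPKM of its listed light chains Slc7a5, Slc7a6, Slc7a7, Slc7a8 and Slc7a11 in each library, with 1 library per condition. The heavy chain is higher in the Ti-treated libraries than in CTL, whereas the stack of light chains goes from 56.4 FPKM in CTL to 63.5 in Ti and 62.2 with Se-Met added.

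The largest differences were in the Slc6a family, most of whose members are driven by sodium and chloride. Its members that passed the filter carry creatine, glycine or taurine. Slc6a8, the creatine carrier, had 20.46 FPKM in CTL, 61.84 in Ti and 48.45 with Se-Met added. It was higher in both Ti-treated libraries, with a fold over CTL of 3.02 (interval 2.81 to 3.26) in Ti and 2.37 (interval 2.18 to 2.57) in Ti+Se-Met. The lowest of these folds under any scaling was 2.06. Between Ti+Se-Met and Ti its fold was 0.783 (interval 0.737 to 0.833), and between 0.783 and 0.822 over the 4 scalings.

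Slc6a9, the glycine carrier GlyT1, had 4.42 FPKM in CTL, 13.29 in Ti and 10.72 with Se-Met added, on about 209, 653 and 376 fragments. It showed the same order as Slc6a8, with a fold over CTL of 3.01 (interval 2.57 to 3.53) in Ti and 2.43 (interval 2.04 to 2.88) in Ti+Se-Met. Its fold between Ti+Se-Met and Ti was 0.807 (interval 0.707 to 0.915). Part of Slc6a9, 30.2% of its exonic bases, overlaps exons of other genes on the opposite strand, among them B4galt2 and Ccdc24. The library kit named in the labels is not one that marks strand, so reads from these stretches cannot be told apart. B4galt2 was at 14.86, 16.12 and 16.32 FPKM and Ccdc24 at 3.47, 4.78 and 3.75 FPKM, and neither differed by 1.5-fold in FPKM between libraries.

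Slc6a6, the taurine carrier, had 33.04 FPKM in CTL, 49.92 in Ti and 53.53 with Se-Met added. It was higher in both Ti-treated libraries, by 1.51-fold (interval 1.44 to 1.58) and 1.62-fold (interval 1.54 to 1.7). Summed over its 8 listed members, the Slc6a family held 58.39 FPKM in CTL, 125.46 in Ti and 113.31 with Se-Met added. The other 5 members, Slc6a2, Slc6a4, Slc6a5, Slc6a7 and Slc6a19, did not exceed 0.44 FPKM in any library. Without this family, 0 of the remaining 17 genes were past 2-fold in any comparison on the log2(FPKM + 1) scale. That 0 was fixed beforehand, because Slc6a8 and Slc6a9 were the only genes of the 20 past this limit. The shares of all 11137 genes past it were 7.26% and 5.96% for Ti and Ti+Se-Met relative to CTL, and 0.224% between these 2 libraries. As TPM, Slc36a4 passed it in Ti, at a log2 ratio of -1.01 to CTL, and Slc38a6 in Ti+Se-Met, at -1.06.

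In the Slc1a family, Slc1a5 (ASCT2), which exchanges glutamine and other neutral amino acids, had 20.88 FPKM in CTL, 31.25 in Ti and 22.91 with Se-Met added. The Ti library stood above the other 2, with a fold of 1.5 (interval 1.37 to 1.64) over CTL and of 0.733 (interval 0.665 to 0.808) for Ti+Se-Met over Ti. Against CTL, the FPKM interval of Ti+Se-Met, 0.987 to 1.22, included equal levels. That fold was 0.956 as TPM and 1.11 by median of ratios, where the interval lay just above equal levels, so its direction depends on the scaling. Slc1a4 (ASCT1), a carrier of serine, alanine and cysteine, was at 21.86 FPKM in CTL and higher in Ti and Ti+Se-Met, at 27.34 and 27.95. Its folds over CTL were 1.25 (interval 1.16 to 1.35) and 1.28 (interval 1.18 to 1.39). As TPM they were 1.07 (interval 0.987 to 1.15) and 1.11 (interval 1.02 to 1.21). Slc1a3 (GLAST), which takes up glutamate and aspartate, was at 21.08, 18.34 and 20.00 FPKM and was the only Slc1a gene of the 3 that was lower in Ti than in CTL, with a fold of 0.87 (interval 0.801 to 0.946).

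The carriers of cationic amino acids, arginine and lysine, were Slc7a1 (CAT1) and Slc7a2 (CAT2). Slc7a1 had 8.89 FPKM in CTL, 14.74 in Ti and 13.99 with Se-Met added, 1.66-fold (interval 1.53 to 1.8) and 1.57-fold (interval 1.44 to 1.72) above CTL. It was thus higher in both Ti-treated libraries and nearly equal between them. Slc7a2 was at 12.56, 15.04 and 12.88 FPKM, and its fold of 1.2 in Ti against CTL became 1.02 as TPM. Slc7a3, another carrier of this kind, was at 0.69, 0.25 and 0.22 FPKM, on 21 fragments or fewer.

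Carriers that work at the lysosome, where they release amino acids from degraded proteins or report on them to the kinase mTOR, showed separate patterns. Slc36a1 (PAT1), which moves small neutral amino acids together with protons, had 6.13 FPKM in CTL, 9.14 in Ti and 6.37 with Se-Met added. Slc38a7, which exports glutamine from lysosomes, was at 7.54, 11.49 and 7.88 FPKM in the same order. In both genes the Ti library stood above the other 2, with folds over CTL of 1.49 (interval 1.32 to 1.68) and 1.52 (interval 1.33 to 1.75). Their folds in Ti+Se-Met against Ti were 0.697 (interval 0.612 to 0.796) and 0.686 (interval 0.591 to 0.798), the lowest of the 20 genes in that comparison. Against CTL, their intervals in Ti+Se-Met included equal levels under all 4 scalings. Slc38a9, the lysosomal arginine sensor, was at 1.43, 0.92 and 0.89 FPKM, on about 178, 119 and 82 fragments. Relative to CTL, its fold in Ti was 0.643 (interval 0.506 to 0.816). Slc36a4 (PAT4), a carrier of proline and tryptophan, was at 7.99 FPKM in CTL and lower in Ti and Ti+Se-Met, at 4.40 and 4.64. Its fold over CTL was 0.551 (interval 0.487 to 0.623) in Ti and 0.581 (interval 0.507 to 0.664) in Ti+Se-Met.

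Promoter sequences were available for 14 of the 20 genes in RefSeq's annotation of GRCm38.p6, as 18 windows from 250 bases before to 50 after a transcription start. The E-box CACGTG, which bHLH factors such as TFEB and Myc recognise and which reads the same on both strands, was in 2 of the 18 windows, those of Slc36a1 and Slc38a7, or 11.1%, in 7.15% of all 32851 windows and in 10.1% of the 11435 windows of genes that passed the filter. Both stretches that lie before the start are shown, with the E-box in capitals. They are chr11:55204298-55204325 on the plus strand for Slc36a1 and chr8:95853509-95853536 on the minus strand for Slc38a7.
Slc36a1: gaatggagcggCACGTGacctgggctag
Slc38a7: tgattcaggctCACGTGttacttgagtc
The match begins 31 bases before the start in Slc36a1 and 34 bases before it in Slc38a7, and Slc36a1 holds another that begins 3 bases before the start and runs past it. A match is only a run of letters, and no binding was measured.

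The antioxidant response element, searched as TGACNNNGC on both strands, was in 7 of the 18 windows (38.9%), which belong to 5 genes, in 12.4% of all windows and in 14.2% of those of genes that passed the filter. The genes were Slc6a9 and Slc7a6 with 2 windows each, and Slc38a2, Slc7a1 and Slc36a1 with 1. Both windows of Slc7a6 held the same match, and in Slc36a1 the match began after the start. Counted by gene, the share was 5 of 14 (35.7%), beside 14% of all genes with a window and 16.9% of those that passed the filter. For the glycine carrier Slc6a9, each of 2 alternative start sites had a match, at chr4:117849293-117849323 and chr4:117855491-117855521 on the plus strand. For the methionine carrier Slc38a2 it was at chr15:96699736-96699766 on the minus strand. Capitals mark the match.
Slc6a9, first start: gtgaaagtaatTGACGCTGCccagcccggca
Slc6a9, second start: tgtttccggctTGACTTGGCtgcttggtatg
Slc38a2: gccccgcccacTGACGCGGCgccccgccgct
The C/EBP-ATF response element, to which ATF4 binds when amino acids are short, was searched as TGATGNAA on both strands. It was in 1 of the 18 windows (5.56%), in 3.97% of all windows and in 2.13% of those of genes that passed the filter. That window was the one of Slc1a4, where TTGCATCA begins 4 bases before the start. Slc1a5, Slc43a3, Slc6a6, Slc6a8, Slc7a2 and Slc7a5 were without a window in the table.

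The Slc38a family as a whole held nearly the same sum in each library on the FPKM scale, 139.19 in CTL, 139.60 in Ti and 134.18 with Se-Met added, although its members differed. Slc38a6 was at 19.29 FPKM in CTL and lower in Ti and Ti+Se-Met, at 11.18 and 10.35, with folds of 0.58 (interval 0.516 to 0.65) and 0.537 (interval 0.47 to 0.613). As TPM its folds were 0.494 and 0.467, and with the pseudocount it passed 2-fold in Ti+Se-Met, at a log2 ratio of -1.06, but not in Ti, at -0.98. Slc36a4 did so in Ti as TPM, at -1.01, and not in Ti+Se-Met, at -0.91. Slc38a10, the most abundant member in CTL, was at 58.60, 52.24 and 56.44 FPKM, so its range was narrow. Slc43a3, which belongs to the family of the LAT3 and LAT4 carriers but is known to carry purine bases, had 5.13 FPKM in CTL, 9.08 in Ti and 8.99 with Se-Met added. Both Ti-treated libraries were above CTL, by 1.77-fold (interval 1.47 to 2.14) and 1.75-fold (interval 1.44 to 2.15).

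The other 20 transporter genes stayed below 1 FPKM in all libraries, with a median of 0.13 FPKM in CTL, 0.04 in Ti and 0.07 with Se-Met added, and 3, 5 and 6 of them were listed at 0. They were Slc1a1, Slc1a2, Slc1a6, Slc1a7, Slc6a2, Slc6a4, Slc6a5, Slc6a7, Slc6a19, Slc7a3, Slc7a4, Slc7a7, Slc7a8, Slc7a13, Slc7a14, Slc38a1, Slc38a3, Slc38a4, Slc38a8 and Slc43a2. The highest were Slc43a2 (LAT4), a carrier of large neutral amino acids that reached 0.99 FPKM in Ti+Se-Met, and Slc38a1 (SNAT1), a glutamine carrier at 0.97 FPKM in CTL and 0.54 in Ti. For Slc43a2 the intervals of all 3 comparisons included equal levels. A transcript of 1 kilobase gets 0.0704, 0.0678 and 0.0948 FPKM from 1 fragment in the 3 libraries, so genes at or near 0 cannot be called absent. The mouse genes of these families in RefSeq's table number 60 without Slc7a11, and the 20 that the deposited table does not list were not analysed here.

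Other genes of amino acid supply gave a background for the transporters. The 23 enzymes of a list of amino acid synthesis, of which 20 passed the filter, had medians of 0.71 for Ti over CTL and 0.51 for Ti+Se-Met over CTL (log2), beside 0.33 and 0.09 for the transporters and 0.08 and 0.01 for all genes. In Ti, 4 of the 20 were at least 2-fold higher than in CTL and 0 were lower, where 3.63% and 3.64% of all genes were. In Ti+Se-Met 4 were higher and 1 was lower, where 2.64% and 3.32% of all genes were. Asns, which makes asparagine, had 26.90 FPKM in CTL, 119.30 in Ti and 91.41 with Se-Met added. Shmt2, which makes glycine from serine in mitochondria, was at 38.51, 126.41 and 99.56 FPKM. Both were past 2-fold in each comparison with CTL, as was Bcat1, which acts on branched-chain amino acids, at 1.98, 7.14 and 5.39 FPKM. The other enzyme past 2-fold was Psph in Ti, at 15.60, 40.50 and 30.52 FPKM, and Mthfd2 in Ti+Se-Met, at 27.23, 54.41 and 58.57 FPKM.

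Among 37 genes of amino acid sensing that passed the filter, 3 were 2-fold higher and 2 were 2-fold lower in Ti than in CTL, where 3.63% and 3.64% of all genes were. In Ti+Se-Met 2 were higher and 2 were lower, where 2.64% and 3.32% of all genes were. Their median log2 ratio was 0.30 for Ti over CTL, beside 0.08 for all genes. Atf4, a transcription factor of amino acid shortage, had 91.03 FPKM in CTL, 219.82 in Ti and 207.00 with Se-Met added, and its target Trib3 was at 4.73, 31.28 and 17.15 FPKM. Ddit3 was at 67.89, 156.75 and 131.88 FPKM. The leucine sensor family was split, as Sesn1 was at 50.63, 18.05 and 18.99 FPKM and Sesn3 at 51.51, 19.39 and 24.00, whereas Sesn2 was at 15.48, 24.00 and 16.37. On the log2(FPKM + 1) scale, 0 of 16 other carriers of amino acids and peptides were past 2-fold in any comparison. These carriers are mostly of mitochondria and lysosomes. This limit was passed by 7.26% of all genes in Ti and 5.96% in Ti+Se-Met, each relative to CTL, and by 0.224% between these 2 libraries. With only 16 genes, a count of 0 lies close to these shares. The median log2 ratio of the 16 carriers to CTL was 0.17 in Ti and 0.15 in Ti+Se-Met, beside 0.08 and 0.01 for all genes. Slc66a1, the lysosomal exporter of cationic amino acids, was at 4.58, 9.43 and 6.52 FPKM, and the cystine exporter of lysosomes, Ctns, at 26.33, 24.64 and 16.56 FPKM. Without the pseudocount, the fold of Slc66a1 in Ti over CTL was 2.06. These lists share their libraries with the transporters, so their values are set side by side only.

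**Figure D4:**
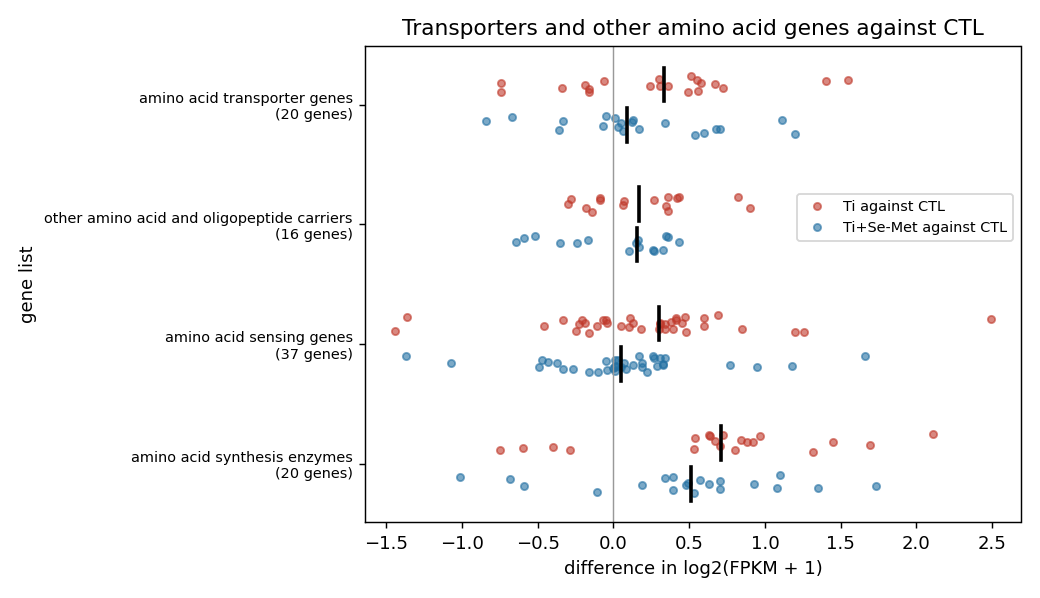
Differences in log2(FPKM + 1) from CTL for the 20 transporter genes and for 3 other lists of amino acid genes that passed the filter, in Ti and in Ti+Se-Met. Points are genes, spread vertically for legibility, and black bars are medians. The medians of the synthesis enzymes, 0.71 and 0.51, lie to the right of those of the transporters, 0.33 and 0.09.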

How the data were processed

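RNA was sequenced from 3 libraries of MC3T3-E1 cells. According to the methods, reads were cleaned of adapters and poor bases and aligned with HISAT2, after which the authors counted them per gene with HTSeq. The submitters' processing notes also name StringTie, SAMtools and the build mm9. The deposited table gives FPKM for each gene to 2 decimals. How FPKM was made is not given in the sources used here, and neither is any scaling between libraries. The value columns were matched to libraries by name, and 0 were left unmatched.

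Log2(FPKM + 1) values were subtracted between libraries in pandas 2.3.3 and numpy 2.4.6 under Python 3.11.15, with intervals from scipy 1.17.1 and plots from matplotlib 3.10.9. A count model was not used, as FPKM is no count. Depth was estimated from 453 genes with 1 transcript of 350 to 1000 bases, less 150 bases, with lengths from GENCODE M21 found for 95.3% of genes. Of 117, 92 and 88 low values of the CTL, Ti and Ti+Se-Met libraries, 55.6%, 45.7% and 40.9% lay on a step, against 14.0%, 14.2% and 11.6% by chance. Fragments per gene are therefore approximate. The analysis was tried on data simulated with the same transcript lengths and with counting error only. Such data cannot show whether the real libraries meet these assumptions.

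The genes, lists and motifs were chosen with earlier results of these data known. Named are the methionine carriers, genes past 2-fold and the 10 most abundant, and all other genes that passed the filter are described by family. Sequences came from RefSeq (GRCm38.p6).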

Additional observations from a re-analysis of the deposited data

How the results depend on the processing

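No paired analysis was possible because conditions had only 1 library each, and none could be left out. The count of 2 genes that differed 2-fold in Ti from CTL became 1 when the pseudocount was 5, 6 for a limit of 1.5-fold, and 0 for one of 4-fold. It was also 0 without the Slc6a family, which holds both genes, so that 0 was fixed beforehand. For Ti+Se-Met against CTL the 2 genes became 1, 7, 0 and 0 under the same settings. As TPM both counts were 3, by Slc36a4 in Ti and Slc38a6 in Ti+Se-Met. In Ti+Se-Met against Ti the number was 0 under all 10 alternatives, where 0.018% to 2.14% of all genes were past the limit. The median log2 ratio of the transporters in Ti against CTL, 0.33, became 0.12 as TPM, 0.21 with upper-quartile scaling and -0.01 without a filter, where the added 20 genes below 1 FPKM cannot move far by construction. In Ti+Se-Met against CTL, 0.09 became -0.10 as TPM. In that comparison 7 of the 20 genes changed sign as TPM and 3 with upper-quartile scaling. In Ti against CTL 0 of the 20 changed sign under any scaling. Another pseudocount cannot change the sign of a difference, so it was no check of direction. The shallower Ti+Se-Met library limits the genes below 1 FPKM.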
